A study of Camellia sinensis with 9 samples.

Results

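Of the 179951 unigenes in the ‘Anji Baicha’ leaf transcriptome, 209 stayed near one level while young yellow-green leaves (stage YG) gave way to white ones (stage W), and then rose when the leaves turned green (stage G). A unigene is an assembled transcript sequence. These were chosen by their own FPKM values (fragments per unit of unigene length and of sequencing depth, a level that can be compared between genes of different length). A unigene had to have an FPKM above 0 in all 3 stages and at least 10 in at least 1, which 6913 unigenes did. The difference between W and YG then had to be under 0.5 in size on the log2(FPKM + 1) scale, and the difference between G and W at least 1.5. Unigenes in the study's tables of carotenoid, chlorophyll and theanine genes were to be left out, but none of those 78 met the rule, so the number before and after this step was 209.

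The leaves came from 4-year-old plants of Camellia sinensis cv. ‘Anji Baicha’, a tea cultivar whose spring shoots are pale in cool weather and turn green as it warms. All 3 groups were of this single cultivar and no treatment is described. YG leaves were first leaves taken in early April. W leaves came from the next positions on shoots that bore more leaves in mid-April. G leaves came from positions further along in May, in warmer weather. Colour, leaf position, age and temperature can therefore not be told apart. Each stage had 3 libraries from 3 plants, but the deposited values hold 1 FPKM value per unigene and stage. No spread between plants, no error and no p-value can therefore be given for any value here. The fragments behind a value are unknown, and each value of a member is given as the value of the whole stage.

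In a pale leaf of such a cultivar the plastids stay poorly developed, with few stacked thylakoids and little chlorophyll. Regreening rebuilds the chloroplast, for which the nucleus supplies most of the proteins, while the blade itself keeps expanding and its cell walls, cuticle and defence chemistry mature. The deposited values name unigenes only by number, and none of the 209 is in the study's lists of named pathway unigenes, so the members are described by their levels and their neighbours rather than by function. An FPKM of 1 in one stage or another was reached by 62 of the 70 unigenes listed for chlorophyll metabolism. It was reached by 37 of 49 listed for carotenoid and 28 of 36 for theanine synthesis. The lists came from the same assembly, so this is no check of the tissue.

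The members were weakly expressed before regreening. Their median FPKM was 2.09 (YG), 2.36 (W) and 17.6 (G), where the medians of all 6913 unigenes past the minimum were 12.7, 12.5 and 14.1. Placed among these 6913, the median member was at percentile 6.81 (YG), 3.98 (W) and 62.5 (G). Among the 1000 most abundant of the 6913, 4 members were found at YG, 4 at W and 31 at G. Members were 3.02% of the 6913, so the number at G was near their share of all. A low level before regreening follows in part from the rule, since every unigene with an FPKM under 10 in YG and W could pass the minimum only through G.

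**Figure D1:**
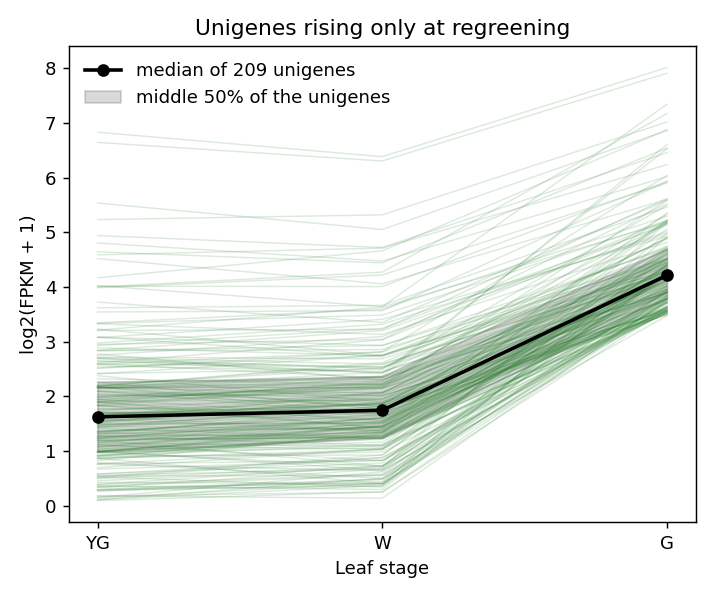
Level of each of the 209 members as log2(FPKM + 1) on the vertical axis at the YG, W and G stages on the horizontal axis, 1 thin line per unigene, with the median in black and the middle 50% of the unigenes shaded. The median FPKM was 2.09 (YG), 2.36 (W) and 17.6 (G), and the bend at W is set by the rule that chose the unigenes.

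Together the members made up a small part of the measured expression and, by the rule, a larger one after regreening than before. Their FPKM values summed to 1006 (YG), 982 (W) and 5600 (G). Of all FPKM in a stage this was 0.263% (YG), 0.281% (W) and 1.51% (G). The sum in G was 5.70 times that in W, while the sum in W was 0.976 times that in YG. A level first step and a rise to G were what the rule asked of each member. The 10 most abundant members held 25.7% of the members' sum in G, and the other 199 held the rest at lower levels. In G, 127 of the 209 had an FPKM under 20, 17 reached 50 and 7 reached 100.

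The size of the rise from W to G ranged from 1.52 to 4.50 on the log2(FPKM + 1) scale, with a median of 2.42. The same median was 0.08 over all 6913 unigenes and 0.10 over the 3543 that were level from YG to W. The members had to lie above these by the rule. At least 2 was reached by 149 members, at least 3 by 51 and at least 4 by 8. As a plain ratio of FPKM, which needs no added constant because no member was listed at 0, G was between 2.95 and 123 times W, with a median of 7.48. A ratio of at least 4 was found for 169 members, of at least 16 for 46 and of at least 32 for 18.

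The largest differences on the log2 scale belonged to unigenes that were almost silent in pale leaves. The FPKM of unigene94623 was 0.109 (YG), 0.336 (W) and 29.3 (G), a log2 difference of 4.50 from W to G. In unigene33064 the values were 0.376, 0.629 and 35.2, a difference of 4.47. For unigene133211 they were 0.444, 0.271 and 24.0, a difference of 4.30. In each of these the YG and W values lay below 1 and the G value above 20.

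Several others shared this shape. The FPKM of unigene17055 was 0.0822 (YG), 0.298 (W) and 23.4 (G), and that of unigene75725 was 0.5004, 0.721 and 30.7. The values of unigene30008 were 0.288, 0.232 and 20.03, and those of unigene59836 were 0.0834, 0.421 and 20.5. Their differences from W to G were 4.23, 4.20, 4.09 and 3.92. The largest plain ratio of all members was that of unigene62483, named for that ratio after the values were seen, which was listed at 0.137 (YG), 0.103 (W) and 12.7 (G), or 123 times W.

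Only 3 of the 10 largest log2 differences came from unigenes with an FPKM above 1 in the pale stages. In unigene17878 the FPKM was 3.56 (YG), 4.17 (W) and 96.4 (G), a ratio of 23.1 between G and W. In unigene26960 it was 5.30, 4.38 and 91.4, a ratio of 20.9. The remaining one, unigene39537, had 1.13, 1.76 and 39.9, a ratio of 22.6. Both unigene17878 and unigene26960 were also among the 10 members with the highest FPKM in G, the only 2 unigenes to be in both groups.

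Members with high expression in regreened leaves were mostly already present in pale ones. The most abundant, unigene1444, had an FPKM of 113 (YG), 82.4 (W) and 257 (G), a log2 difference of 1.63 from W to G. Next came unigene51319, with 98.9, 78.0 and 239 and a difference of 1.60. Both had a lower value in W than in YG, and under quantile normalization of the stages their differences were 1.33 and 1.32, below the threshold of 1.5. The FPKM of unigene7914 was 36.6, 38.9 and 128, and its difference was 1.69, or 1.48 under quantile normalization.

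A larger rise at high level was seen in a pair of unigenes. The FPKM of unigene6304 was 15.3 (YG), 11.5 (W) and 161 (G), 14.0 times W, and that of unigene4029 was 15.02, 18.3 and 143, 7.81 times W. The other abundant members rose less. For unigene23616 the FPKM was 17.0, 24.3 and 116, for unigene42054 it was 45.4, 32.2 and 115, and for unigene18315 it was 24.0, 20.7 and 92.0, which gave log2 differences of 2.21, 1.81 and 2.097. In all of these the G value was well above both pale stages, which differed by less than 1.5 times from each other.

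**Figure D2:**
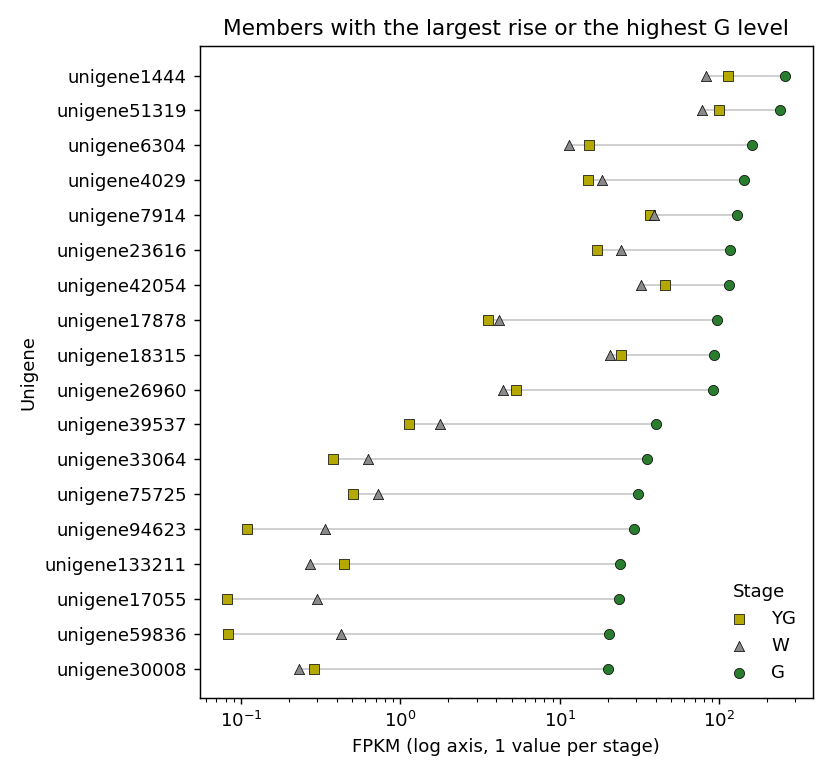
FPKM on a log axis of the 18 members with the largest log2 difference from W to G or the highest FPKM in G, with YG as squares, W as triangles and G as circles, 1 value per stage. The upper rows started from an FPKM of up to 113 in YG and rose about as far as 257 in G, while the 7 lowest rows started below 1 in YG and W and reached 20.03 to 35.2 in G.

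The members started from a wide range of levels. Grouped by the higher of their YG and W values, 36 stayed under an FPKM of 1 in both, 48 lay from 1 to 2, 75 from 2 to 5, 30 from 5 to 10 and 20 at 10 or more. The median FPKM in G rose along these groups from 13.7 to 14.5, 16.2, 25.2 and 69.1. The median ratio of G to W fell from 32.9 to 9.17, 5.69, 3.92 and 3.50. This order is partly fixed by the rule, as a low unigene must rise far to reach the minimum of 10. The highest ratios in the upper groups, 20.9 for unigene26960 and 14.0 for unigene6304, stood apart from the medians of their groups. The 20 unigenes at 10 or more held 34.0% of the members' FPKM in G, and the 36 under 1 held 10.5%.

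**Figure D3:**
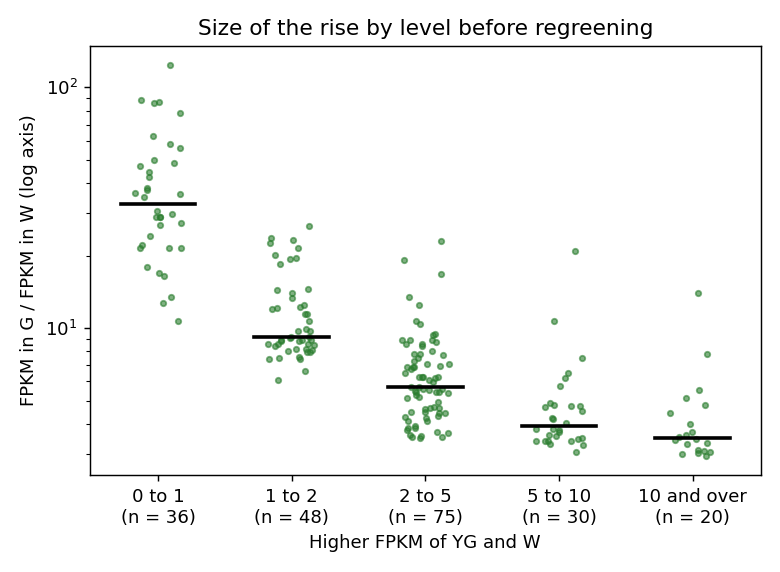
Ratio of the FPKM in G to that in W on a log axis for each member, grouped on the horizontal axis by the higher of its YG and W values, with 1 point per unigene, a bar at the median and a random sideways shift for legibility. The median ratio was 32.9 in the group under 1 and 3.50 in the group at 10 or more.

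The first step was level by the rule, and its remaining spread was uneven. W was above YG in 141 of the 209 members and below it in 68. That is 67.5%, beside 50.8% of all 3543 level unigenes, but the members were lower than these. Among the level unigenes whose higher value in YG and W was under 10, W was above YG in 513 of all 712 and in 131 of the 189 members. At 10 or more it was above in 45.4% of all 2831 and in 10 of the 20 members. The share was thus higher at the lower level both among the members and among all level unigenes. The nearest to no difference was unigene39783, with 1.44 (YG), 1.44 (W) and 12.1 (G).

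The added 1 of the log2 scale hides ratios at low levels. As plain ratios of W to YG, 137 members were within 1.41 times in either direction, the ratio that 0.5 on a log2 scale stands for, 57 were above it and 15 below it. At least 2 times higher in W than in YG were 8 members, each with a W value under 1, and the highest such ratio was 5.05 in unigene59836. At least 2 times lower was 1 member, unigene123749, with 0.828 (YG), 0.328 (W) and 12.5 (G). For these members "only at regreening" describes the size of the change in FPKM and not its ratio. Without the added constant in the first step, 137 of the 209 would therefore remain.

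The edges of the rule fell in a continuous range of values. Just inside the rise of 1.5 were unigene805 (7.44, 9.63 and 29.5 in YG, W and G), unigene87031 (23.1, 25.2 and 74.4), unigene167942 (3.07, 3.06 and 10.8), unigene42898 (27.0, 21.2 and 63.7) and unigene2147 (21.9, 15.7 and 47.6). Just outside it were unigene13114 (3.74, 3.07 and 10.5), unigene88313 (7.00, 4.89 and 15.6), unigene120733 (4.13, 3.50 and 11.7), unigene129369 (47.0, 63.2 and 179) and unigene22141 (32.1, 38.3 and 109). Their log2 differences lay between 1.52 and 1.54 inside and between 1.49 and 1.496 outside. All 5 inside dropped under 1.5 when the stages were scaled by their upper quartiles.

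At the edges of the first step, unigene37235 was the member that differed most upward (0.982, 1.79 and 16.4 in YG, W and G) and unigene170414 the one that differed most downward (3.79, 2.40 and 16.5). The nearest unigenes left out were unigene41250 (2.21, 3.55 and 15.6) and unigene16878 (3.94, 2.49 and 10.5). At the minimum of 10, unigene19466 was in with 0.460, 0.472 and 10.1, and unigene82896 was out with 1.97, 1.23 and 9.98. With no minimum, 661 unigenes met both differences, of which 221 had a G value from 5 to 10.

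A further 21 unigenes met every condition except that of a value above 0 in each stage. They were listed at 0 in both YG and W in 14 cases, in YG alone in 6 and in W alone in 1, and their FPKM in G ran from 10.5 to 22.8 with a median of 13.4. The highest, unigene96987, named after its values were seen, was listed at 0 in YG, at 0.267 in W and at 22.8 in G. A listed 0 can be a failed estimate, so no fold was taken against it.

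Rising after a level first step was 1 of 3 ways to rise at regreening. Of the 6913 unigenes past the minimum, 539 (7.8%) rose by at least 1.5 from W to G. The 209 members were 38.8% of these, against 281 (52.1%) that had also risen by 0.5 or more from YG to W and 49 (9.09%) that had fallen by 0.5 or more. Read by the first step instead, the rise to G was found in 5.9% of the 3543 level unigenes, in 14.6% of the 1930 that had risen and in 3.4% of the 1440 that had fallen. Both differences use the same W value, so an error in it moves them in opposite directions, and no test of the difference between these shares was possible. The minimum enters each share too, since it admits low unigenes only where they rose, and nothing is read from their order.

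**Figure D4:**
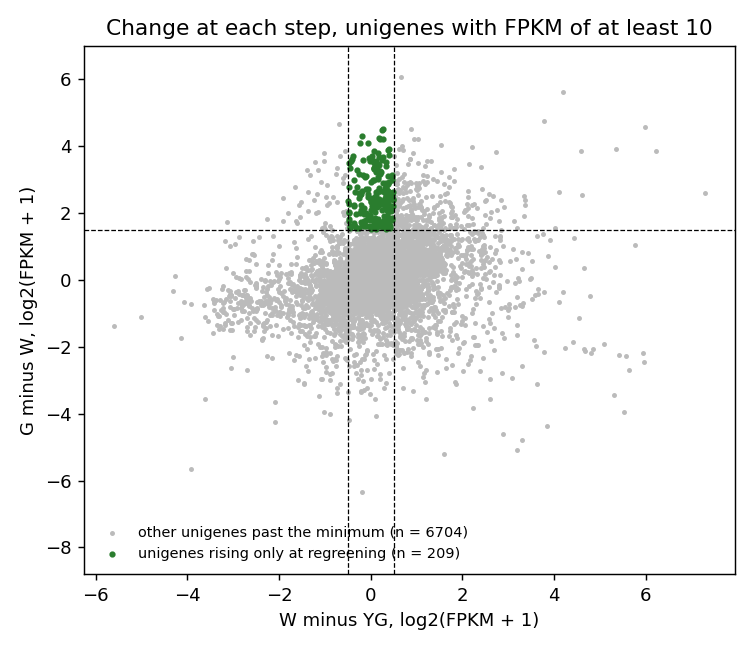
Difference from W to G on the vertical axis against the difference from YG to W on the horizontal axis, both on the log2(FPKM + 1) scale, for the 6913 unigenes past the minimum, with the 209 members in green, the other 6704 in grey and the limits of the rule as dashed lines. The members fill the space above 1.5 between the vertical limits with no gap from the neighbours at the left, at the right and below.

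The unigenes that rose at both steps carried more of the expression in regreened leaves. Their median FPKM was 1.27 (YG), 4.68 (W) and 24.6 (G), and they held 5.58% of all FPKM in G, beside 1.51% for the members. The highest value in G was 2263 in that group and 257 among the members. Their median rise from W to G was 2.09 on the log2 scale, beside 2.42 for the members. The members had a lower median FPKM in W, and a lower unigene must rise further to reach the minimum. The part of this in the difference was not tested.

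The mirror pattern, level to W and then a fall of at least 1.5, was found in 88 unigenes, or 2.48% of the 3543. These held 0.945% of all FPKM at YG, 0.988% at W and 0.167% at G. Their summed FPKM went from 3454 in W to 620.0 in G while that of the members went from 982 to 5600. The rules set both directions. Their median difference from W to G was -1.97, and a fall of at least 3 was seen in 12 of them. With a pseudocount of 0.1 the 2 numbers were 167 rising and 101 falling, and with the first step judged by the plain ratio they were 137 and 83. After quantile normalization they were 168 and 112. The numbers of rising and falling unigenes cannot be set against each other, because a unigene low in both pale leaves passes the minimum only if it rises. Among the 712 level unigenes whose higher value in YG and W was under 10, 189 were members and 0 fell by 1.5. Among the 2831 at 10 or more, which passed the minimum whatever G was, 20 were members (0.706%) and 88 fell (3.11%). This part leaves out the 189 members that started lower but none of the 88, so it favours falls. No order of the 2 directions is read from either part.

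None of the named pathway unigenes met the rule, and 2 level ones past the minimum came within 0.5 of the rise it asks for. The study's lists for the carotenoid, chlorophyll and theanine pathways, in the copies used here, hold 155 different unigenes. For carotenoid and chlorophyll genes they hold slightly fewer than the study describes. Of the 155, 54 passed the expression minimum and 22 of these were level from YG to W. None of the 22 rose by 1.5 or more to G. All 22 had an FPKM in W of at least 9.89, and among the 2521 level unigenes with 10 or more in W only 19 (0.754%) were members, so that 0 of 22 does not set the lists apart. G was above W in 11 of the 22 and below it in the other 11. Among all 3543 level unigenes it was above in 2085, or 58.8%, but 712 of these had under 10 in YG and W. Such unigenes passed the minimum only through G, so all 712 lay above. The share among the other 2831 was therefore lower than 58.8%. The 58.8% is no measure for the lists, and 11 of 22 is not read as below the share of level unigenes. By pathway, 6 of 6 level carotenoid unigenes and 5 of 6 level theanine unigenes lay above, and 10 of 10 level chlorophyll unigenes below. The lycopene ε-cyclase unigene89247, with 9.57 (YG), 9.89 (W) and 11.1 (G), was likewise let in only through G. Level or not, G was above W in 12 of 13 carotenoid, 12 of 16 theanine and 10 of 25 chlorophyll unigenes past the minimum. Some of these passed it only through G. Each of these 10 chlorophyll unigenes had also been higher in W than in YG, among them the magnesium chelatase subunit CHLH unigene24228, with an FPKM of 49.2 (YG), 88.4 (W) and 209 (G). For the level unigenes, the chlorophyll and theanine counts were unchanged under upper-quartile scaling and quantile normalization. Under the latter 5 of the 6 carotenoid unigenes lay above and 45.2% of all level unigenes did. Over all unigenes past the minimum, these settings moved the median difference from W to G from 0.08 to 0.01 and -0.08. A downward shift moves unigenes with G below W further down, so the unchanged chlorophyll count is no sign of stability. Such a shift could have changed only the carotenoid and theanine unigenes with G above W.

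The nearest was a unigene for phytoene synthase (PSY), the enzyme that joins geranylgeranyl diphosphate into phytoene and so opens carotenoid synthesis. The FPKM of this unigene38088 was 19.7 (YG), 23.7 (W) and 66.7 (G), a log2 difference of 1.45 from W to G. A second PSY unigene, unigene26809, had 19.4, 18.8 and 31.7 and a difference of 0.72. The lycopene β-cyclase (LCY-b) unigene11724 had 7.76, 11.0 and 19.9. The other level carotenoid unigenes past the minimum differed by 0.15 to 0.22. They were for isopentenyl diphosphate isomerase, the first plastid isoprenoid enzyme DXS and lycopene ε-cyclase.

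In the theanine pathway the nearest was unigene37160, listed for alanine decarboxylase (AIDA), the enzyme thought to supply the ethylamine of theanine. No AIDA gene had been identified, so the study used arginine decarboxylase genes with similar domains under this name. The FPKM of unigene37160 was 18.5 (YG), 15.6 (W) and 37.7 (G), a log2 difference of 1.22. For a second AIDA unigene, unigene89828, the values were 22.8, 17.4 and 31.3, but unigene132868, also listed as AIDA, had 55.3, 39.1 and 22.5 and so was lower in G than in W. The glutamine synthetase (GS) unigene13585, also listed for theanine synthetase, was far more abundant, with 104, 100.4 and 153 and a difference of 0.61.

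The 10 level chlorophyll unigenes past the minimum all had a lower FPKM in G than in W. Among them were unigenes for early steps from glutamate to porphyrins, such as unigene90011 for glutamate-semialdehyde aminotransferase (GSA), with 86.6, 95.7 and 79.9, and unigene39110 for hydroxymethylbilane synthase (HEMC), with 79.2, 68.7 and 40.9. The magnesium chelatase subunit CHLI unigene8500 had 42.9, 59.6 and 45.3. Differences from W to G in the 10 ran from -0.20 to -1.83. The largest was that of the protochlorophyllide oxidoreductase (PORA) unigene57504, with 13.6, 11.3 and 2.47, which thus belonged to the 88 unigenes of the mirror pattern. Below the minimum, level chlorophyll unigenes went either way. There unigene91770, listed as HEMA and named after its values were seen, had 0.242 (YG), 0.149 (W) and 2.28 (G). Its difference from W to G was 1.52, so it failed the rule only by the minimum.

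Of the 54 listed unigenes past the minimum, only 2 rose by at least 1.5 from W to G at all, and both had also risen from YG to W. The CAO unigene37586, for the oxygenase that makes chlorophyll b, had 1.91, 3.33 and 14.1, with differences of 0.57 and 1.80, and so lay just outside the first limit. The chlorophyllase (CLH) unigene131928 had 0.0277, 4.44 and 56.0.

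The unigene number was not used by the rule. The numbers of the members had a median of 43333, beside 39847 for all unigenes past the minimum and 38516 for those level from YG to W. Up to number 100000, 167 of 6020 unigenes past the minimum were members, or 2.77%, and above it 42 of 893, or 4.70%. As shares of the level unigenes these were 5.29% and 10.9%. Of the unigenes falling only at regreening, 71 were among the 3156 level ones up to 100000 and 17 among the 387 above. Their median number was 62276.5, so a lean to high numbers was not particular to the members. Unigenes past the minimum with high numbers were somewhat less abundant, with a median highest FPKM of 15.4 against 18.6, and 1 of the 42 members there reached an FPKM of 50 in G against 16 of the 167. How the assembly assigned numbers is not given in the sources used here, and its part in these shares was not tested.

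No 2 members had consecutive numbers, and 5 pairs lay within 10 numbers of each other, the closest being unigene168064 and unigene168068. The first had 5.13 in YG and 7.20 in W, the second 10.7 and 10.9, and their differences from W to G were 2.14 and 2.36. In the pair unigene133211 and unigene133220 the differences were 4.30 and 1.98, so 2 near numbers could have unlike values. Reads shared by similar unigenes may have been divided among them, which is not described, and unigenes are therefore not independent measurements.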

How the data were processed

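RNA-seq was done on 9 leaf libraries, 3 per stage. The authors filtered the reads, assembled unigenes de novo with Trinity and further tools, and expressed abundance as FPKM with Cufflinks, for which the study's methods and the submitters' processing notes name different versions. The deposited FPKM tables hold 1 value per unigene and stage. How the libraries were combined and which aligner was used are not given in the sources used here. The values of the stages summed to 382235 (YG), 349550 (W) and 370564 (G). Low values were searched for repeated steps between stages. At most 25 of 23327 low unigenes shared a ratio, too few to recover read numbers, so depth is unknown.

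The 3 tables were joined by unigene, differences were taken of log2(FPKM + 1), and counts, medians and ratios were computed in Python 3.11.15 with pandas 2.3.3 and numpy 2.4.6. With 1 value per stage no test was made, so the planned form without replicates was used. The rule was tested on simulated data. The members and lists were chosen with earlier results of these data known. Named were the 10 members with the largest difference from W to G and the 10 with the highest FPKM in G. Also named were unigenes at the edges of the rule (5 on each side of the rise). Level pathway unigenes past the minimum and within 0.5 of the rise were named too. Other names were chosen after their values were seen. Alternatives were other pseudocounts, minimums, limits, upper-quartile scaling and quantile normalization. The band on the plain ratio, the numbers of falling unigenes and the split of level unigenes at an FPKM of 10 were added after seeing the data. In the groups set beside the members, the unigenes of the pathway tables were kept.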

Additional observations from a re-analysis of the deposited data

How the results depend on the processing

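The number of members followed the limits of the rule. It was 661 with no FPKM minimum or with a minimum of 1, 430 with a minimum of 5 and 82 with a minimum of 20. A first step within 0.25 gave 107 and one within 1 gave 353, a rise of at least 1 gave 366, and the plain ratio in the first step gave 137. These numbers differ because fewer or more unigenes are let in. The other 7 settings gave 149 to 230. A pseudocount of 0.1 kept 144 of the 209 members, upper-quartile scaling 195 and quantile normalization 168, and 111 were kept under all 3. Quantile normalization moved the median difference from W to G of all 6913 unigenes from 0.08 to -0.08.

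The median rise of the members was 2.36 with a pseudocount of 0.1, 2.09 with a minimum of 5, 2.37 with scaling by upper quartiles and 2.43 after quantile normalization. Their share of all FPKM in G was 1.34%, 1.93%, 1.49% and 1.06% in the same order. Members made up 27.5% of all unigenes rising from W to G with a pseudocount of 0.1 and 47.3% with a minimum of 5. All 37 named unigenes differed by at least 1.22 from W to G, and a pseudocount cannot change a direction. That none changed direction under 3 settings is therefore no sign of stability. Of the 27 that are members, 5 fell below 1.5 with the stages scaled to their upper quartiles and 8 after quantile normalization. No paired analysis was possible because each stage has 1 value with no replicate number, and no replicate could be left out.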
